A study of Mus musculus with 7 samples.

Results

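The transcripts of 50 genes of cell division were followed through the cells of the developing mouse ovary. Members were found by symbol among the 31053 genes of the deposited matrices, 1 row for each symbol. 20 of them act around DNA synthesis and are called S genes here, and 30 act in the passage from G2 through mitosis and are called G2/M genes. The study prepared 1 droplet library at each of 7 ages, from gonads of embryos at E11.5 and E12.5, then E14.5, E16.5 and at last E18.5 (days of gestation) and of pups on postnatal days 1 (P1) and 5 (P5). All animals were wild-type C57BL/6J mice that received no treatment, and each library pooled the gonads of several animals, whose cells cannot be told apart. Gonads at E11.5 had not been separated by sex, and the later libraries are from ovaries. Time in trypsin lengthened with age, from 20 min at E11.5 and E12.5 to 40 min at E14.5 and E16.5, 1 h at E18.5 and 80 min at P1 and P5, so age and dissociation cannot be told apart. With 1 library per age there is no replicate error, so no test was made, and every interval below is a 95% interval that covers counting error only.

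Of 50823 cells with at least 200 detected genes, those that passed exactly 1 of 5 gates were used. The gates were at least 3 unique molecular identifiers (UMIs, counted transcripts) of Dazl, Ddx4 and Pou5f1 for germ cells, at least 2 of Upk3b for epithelium, at least 3 of Wnt6 and Kitl for pregranulosa, at least 3 of Col1a1 and Col1a2 for stroma, and at least 2 of Cdh5 for endothelium. In the order of the ages, germ cells numbered 36, 339, 2511, 863, 407, 224 and 47, epithelial cells 300, 185, 106, 10, 15, 27 and 40, pregranulosa cells 228, 1430, 3884, 3191, 1383, 1287 and 1533, stromal cells 2912, 1123, 1328, 2444, 899, 1984 and 2603 and endothelial cells 56, 14, 73, 52, 32, 27 and 28. Classes under 50 cells give values that rest on few cells. No gate was passed by 4318, 1227, 2465, 2822, 921, 2253 and 1581 cells, and 406, 387, 693, 1388, 191, 232 and 318 cells passed several gates. Independent markers, none of which sets a gate, followed the gates: the summed level of Mael, Dnd1, Tex101, Rnf17 and Sycp3 was 242 to 2988 CPM in germ cells and at most 110.0 in the other gated classes, and that of Pecam1, Kdr, Cldn5, Egfl7 and Emcn was 2438 to 3697 in endothelium and at most 220.0 in the other gated classes. The germ markers were at 424 CPM in cells of several gates and 159 in cells of no gate at E16.5. Stromal markers (Nr2f2, Pdgfra, Col3a1, Dcn, Tcf21) were 1093 to 4959 CPM in stroma and up to 817 in epithelium. The pregranulosa markers Wnt4, Foxl2, Fst, Runx1 and Irx3 overlapped most between classes, with 363 to 2056 CPM in pregranulosa and 81.8 to 688 in epithelium. Keratins and Lhx9 and Aldh1a2, used as epithelial markers, were at 917 to 4414 in epithelium and also at 426 to 662 in pregranulosa. At E11.5 the pregranulosa gate held more of these (544) than of the pregranulosa markers (363). Only 10 of its 228 cells had a Foxl2 UMI, so pregranulosa at E11.5 is the name of the gate alone. Markers of the mesonephros or rete (Pax8, Pax2, Cdh16) were at 3.90 to 48.1 CPM in pregranulosa and up to 52.5 in epithelium, and at most 3.93 in the other gated classes. Mural markers (Rgs5, Cspg4, Notch3) were at 32.5 to 139 in stroma. The part of rete or mural cells in the levels of the classes was not tested. Red cell transcripts (haemoglobins, Alas2 and Car2) were found in every class, from 600.4 CPM in germ cells to 34369 in endothelium, and their part in the levels was not tested. A level below is the UMIs a gene had in all cells of a class for every 1000000 UMIs of the class (CPM). It counts transcript ends and was not divided by gene length, so the levels of a gene are compared between cells, and where members are put in order it is by their UMIs in these libraries.

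In a dividing cell the S genes supply the helicase that opens DNA, the proteins that load it, the nucleotides and the fork machinery, while the G2/M genes supply the cyclins and kinases that start mitosis, the kinetochores and spindle that move the chromosomes, and the ubiquitin machinery that ends it. In the fetal ovary, germ cells stop mitosis, copy their DNA a last time before meiosis and then stay in meiotic prophase. Pregranulosa cells, which will surround the oocytes, largely leave the cycle while the stroma around them grows, and the granulosa cells of follicles that start to grow after birth divide again.

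Promoters of the genes on which the comparisons below turn are printed here because the S and G2/M lists differ in the short elements they hold. Sequences came from the RefSeq promoter table on GRCm38.p6, which held 44 of the 50 genes (Aurkb, Ccna2, Gins2, Gmnn, Mcm4 and Tpx2 were not matched). Each line gives the 250 bases before the start of a gene, 5′ to 3′ on its own strand, at chr1:128359706-128359955 for Mcm6 (minus strand), chr19:38930740-38930989 for Hells (plus strand), chr9:65890073-65890322 for Pclaf (plus strand), chr10:69352913-69353162 for Cdk1 (minus strand), chr11:99024190-99024439 for Top2a (minus strand) and chr2:164769679-164769928 for Ube2c (plus strand). Capitals mark matches on either strand to the E2F element TTTNNCGC, the CCAAT box CCAAT and the cell cycle homology region (CHR) TTTGAA, and neighbouring matches can overlap, as the pair in CCAATTGG of Ube2c and the pair in TTTGGCGCGAAA of Mcm6 do.
Mcm6: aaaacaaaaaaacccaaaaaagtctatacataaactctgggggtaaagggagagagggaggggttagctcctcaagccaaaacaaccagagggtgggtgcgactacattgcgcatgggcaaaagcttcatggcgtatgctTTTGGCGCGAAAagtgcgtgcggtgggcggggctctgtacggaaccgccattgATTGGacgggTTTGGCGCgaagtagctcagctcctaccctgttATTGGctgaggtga
Hells: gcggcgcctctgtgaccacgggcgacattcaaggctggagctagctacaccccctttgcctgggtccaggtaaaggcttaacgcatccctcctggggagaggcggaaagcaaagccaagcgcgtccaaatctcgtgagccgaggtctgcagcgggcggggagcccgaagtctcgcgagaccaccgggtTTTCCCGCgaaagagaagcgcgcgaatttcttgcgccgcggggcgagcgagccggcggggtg
Pclaf: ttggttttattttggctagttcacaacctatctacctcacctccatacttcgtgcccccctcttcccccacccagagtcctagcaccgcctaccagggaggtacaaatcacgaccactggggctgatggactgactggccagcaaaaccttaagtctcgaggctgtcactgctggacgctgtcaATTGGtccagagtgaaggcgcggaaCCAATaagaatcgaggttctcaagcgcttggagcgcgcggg
Cdk1: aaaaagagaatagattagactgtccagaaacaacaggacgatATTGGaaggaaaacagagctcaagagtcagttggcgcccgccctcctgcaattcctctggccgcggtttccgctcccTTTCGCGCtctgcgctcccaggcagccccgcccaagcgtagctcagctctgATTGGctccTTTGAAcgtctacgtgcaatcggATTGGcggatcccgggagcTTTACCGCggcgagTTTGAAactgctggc
Top2a: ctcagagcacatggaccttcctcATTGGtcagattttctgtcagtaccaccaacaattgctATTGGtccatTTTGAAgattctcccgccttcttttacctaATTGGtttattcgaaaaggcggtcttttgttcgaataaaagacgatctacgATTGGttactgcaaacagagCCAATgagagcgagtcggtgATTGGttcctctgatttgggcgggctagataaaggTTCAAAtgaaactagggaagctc
Ube2c: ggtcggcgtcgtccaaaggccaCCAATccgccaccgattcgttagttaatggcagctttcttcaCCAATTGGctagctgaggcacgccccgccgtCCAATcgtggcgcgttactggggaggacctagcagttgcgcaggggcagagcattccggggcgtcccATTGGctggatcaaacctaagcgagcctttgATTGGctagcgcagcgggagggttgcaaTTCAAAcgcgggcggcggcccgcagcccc

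The E2F element stood in 5 of 17 S promoters (29.4%) and 1 of 27 G2/M promoters (3.704%, that of Cdk1), and in 4.28% of all 32851 promoters of the table. The S genes with it were Mcm5, Mcm6, Dtl, Cdc6 and Hells. The CHR stood in 10 of 27 G2/M promoters (37.0%) and 3 of 17 S promoters (17.6%), against 15.99% of all promoters. Members were counted per gene, with a match in any promoter of the gene, while the share of all promoters was taken per promoter. Prc1 and Fen1 had 2 promoters each, with the CHR in only 1 of them. The CCAAT box was common in both, in 21 of 27 G2/M promoters (77.8%) and 11 of 17 S promoters (64.7%) against 33.8% of all. Cdk1 held all 3 elements. Ube2c and Top2a each held 6 CCAAT boxes, with 1 CHR in Ube2c and 2 in Top2a, whereas Hells held a lone E2F element and Pclaf 2 CCAAT boxes alone. A match is a description of the letters and shows no binding.

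The E16.5 library stood apart in its cell barcodes. It shared 0 to 3 barcodes with each other library, while the other 15 pairs of libraries shared 22 to 136, although the same chemistry is stated for all. Some members moved at E16.5 in every large class together. Mki67, the proliferation antigen that coats mitotic chromosomes, reached 10.5 times in germ cells, 5.44 times in pregranulosa and 4.56 times in stroma the geometric mean of its E14.5 and E18.5 levels, and Knl1, a scaffold of the kinetochore, 5.84 times in germ cells, 3.09 times in pregranulosa and 2.40 times in stroma. Pcna, Rrm2, Ccnb1 and Cdc20 were over 2-fold below that mean in all 3 classes, as low as 0.185 times for Ccnb1 in germ cells. These 4 below it and the 2 above it were the only members past 2-fold in all 3 classes. By any amount, 13 members were above that mean in all 3 classes, 23 were below it in all 3, and 14 were neither. Bub1, Hmmr, Ckap2l, Cenpf and Top2a were among those above it. Neither count was made over all genes, so it is not known whether members moved more often than other genes. Age and library cannot be told apart for these values, so comparisons across ages that use E16.5 are given with E18.5 in its place, and comparisons between classes are made within a library.

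Germ cells held the highest summed level of the 50 genes in every library but E11.5, and pregranulosa the lowest in every library. In the order of the ages the sum was 6461, 7434, 5731, 5434, 3476, 4278 and 5449.7 CPM in germ cells. In stroma it was 6417, 4798, 4416, 3503, 2931, 2929 and 3189. In pregranulosa it was 3564, 1720.0, 674, 509.5, 522, 797 and 1299.7. The germ cell sum was thus within a factor of 1.36 of its E12.5 value at P5, its lowest value was at E18.5, and the stromal sum was lower at each age than at the one before up to E18.5. Pregranulosa was at 0.296 (0.291 to 0.302) of its E12.5 level at E16.5 and at 0.756 (0.742 to 0.77) at P5. Epithelium, at 6855, 5140.1, 3019, 1568, 2124, 1271 and 1671, and endothelium, at 5913, 4792, 3026, 2026, 3095, 2082 and 1731, were below stroma and above pregranulosa from E14.5 on, except that endothelium at E18.5, with 32 cells, was at 1.06 (0.993 to 1.12) times stroma.

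**Figure D1:**
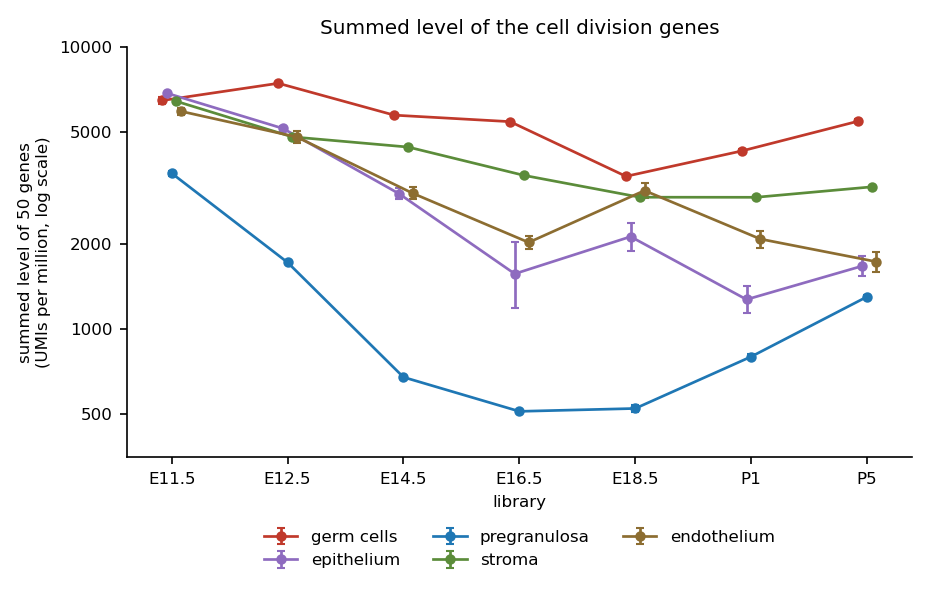
Summed level of the 50 cell division genes in CPM (vertical log axis) in each of 7 libraries (horizontal axis), 1 line per cell class, with bars for 95% Poisson intervals of the counts. Pregranulosa lies lowest throughout, with 509.5 at E16.5 and 522 at E18.5, whose intervals overlap. Germ cells range from 3476 to 7434.

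Cells were also counted singly after thinning each to 2000 UMIs, with shallower cells left out (0, 14, 100, 46, 6, 11 and 0 germ cells, 33, 19, 35, 185, 24, 75 and 88 stromal and 1, 19, 41, 142, 8, 11 and 11 pregranulosa cells in the order of the ages), and with over 1000 CPM (at least 3 UMIs of the 50 genes) as the mark. Of germ cells, 94.3 to 100% passed it. Of stromal cells 80.3, 51.6, 54.8, 32.9, 32.7, 30.4 and 28.5% passed it in the order of the ages, and of pregranulosa cells 57.7, 23.8, 12.49, 6.56, 7.56, 10.7 and 12.2%. The germ cell share stayed near its ceiling while the share of stroma was 80.3% (78.8 to 81.8) at E11.5 and 28.5% (26.8 to 30.4) at P5. Without thinning, the shares were 99.0 to 100% in germ cells, 30.6 to 87.7% in stroma and 5.39 to 67.5% in pregranulosa. The part of free transcripts in the low pregranulosa values was not tested. The germ markers named above, which pregranulosa cells should lack, were at 23.5 CPM in pregranulosa cells at E16.5 and at 2778 in germ cells of the library.

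**Figure D2:**
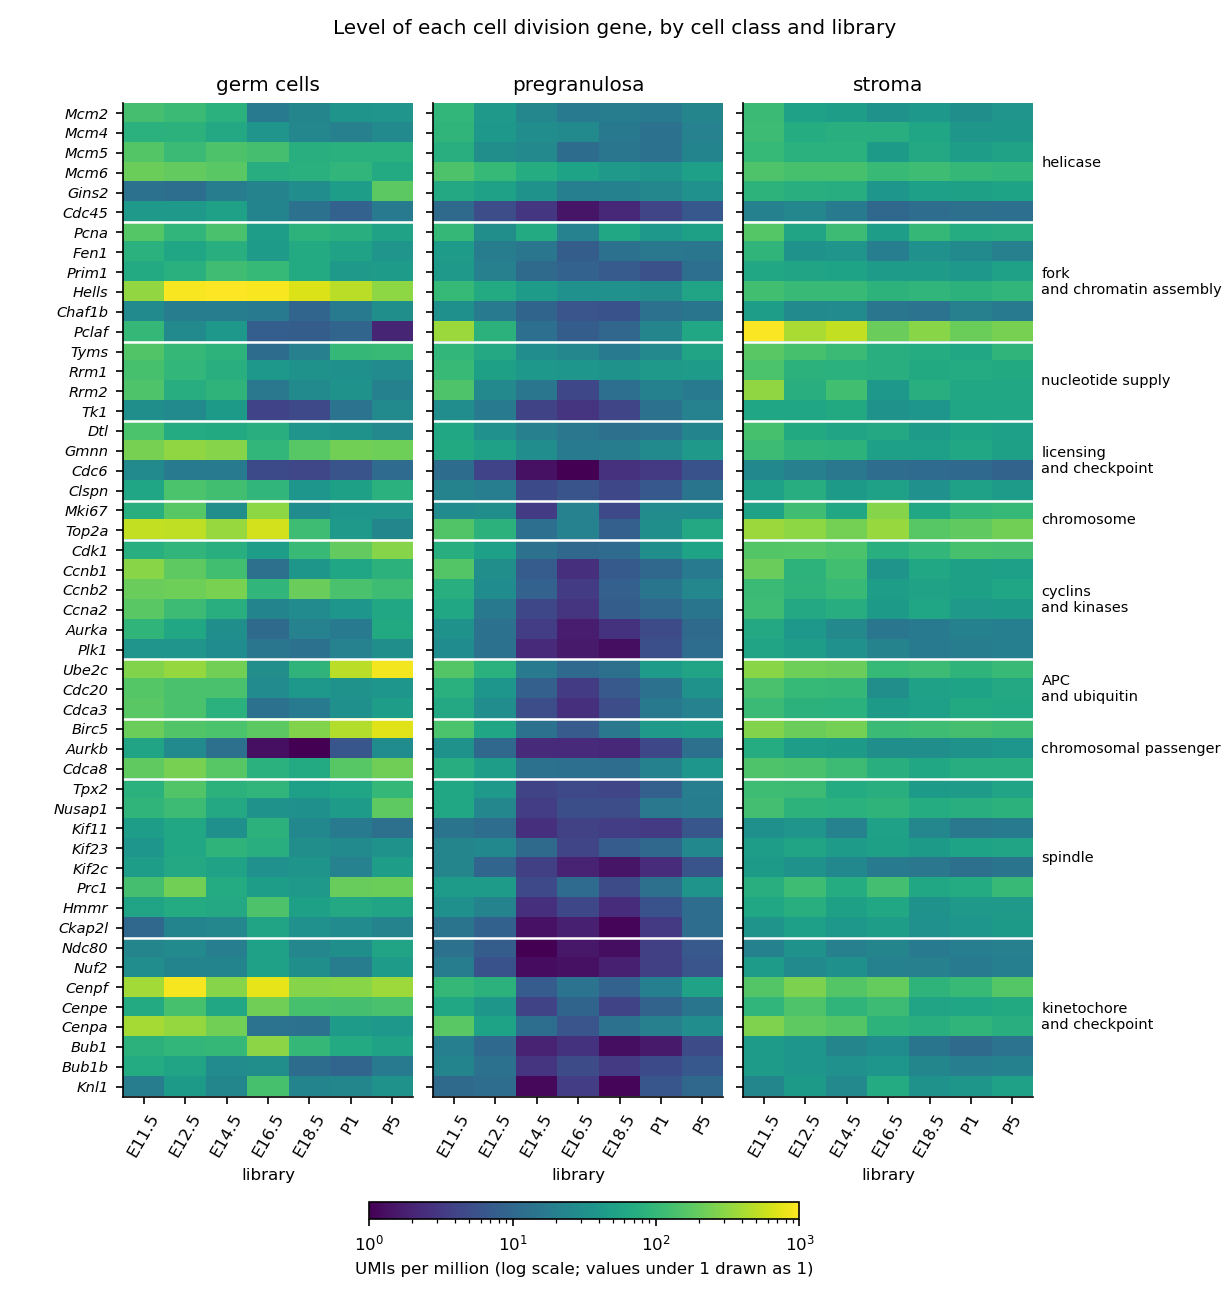
Level of each of the 50 genes (rows, grouped by role) in germ cells, pregranulosa and stroma in 7 libraries (columns), coloured by CPM on a log scale. The pregranulosa block darkens from E14.5 to E18.5 most in the G2/M rows, Hells stays bright in germ cells, and Ube2c and Birc5 brighten in germ cells toward P5 (881 and 712 CPM).

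In pregranulosa the G2/M sum was farther below its E12.5 value than the S sum was from E14.5 to E18.5. Its S sum was 1701, 775, 493, 325, 350.3, 389 and 594 CPM in the order of the ages. Its G2/M sum was 1863, 945, 181, 184, 171, 407 and 706. The ratio of S to G2/M UMIs was therefore 0.913, 0.82, 2.72, 1.77, 2.04, 0.956 and 0.842, above 1 at E14.5, E16.5 and E18.5 and below it at the other ages. In stroma the same ratio was 0.895, 0.569, 0.749, 0.479, 0.808, 0.663 and 0.623, and in germ cells 0.569, 0.541, 0.919, 0.499, 0.768, 0.526 and 0.346, with no value above 1 in either. At E14.5 the pregranulosa ratio of 2.72 (2.63 to 2.81) stood beside 0.749 in stroma of the same library. The side of 1 did not hold under every alternative at E11.5, E16.5, P1 and P5. At P1 the ratio was 1.49 without the 5% of cells with the highest Scrublet doublet scores, 1.03 with a filter on cell quality and 1.13 as the mean over cells. At E11.5 it was up to 1.06 and at P5 up to 1.03, both as the mean over cells. The E16.5 value changed with the filter on cell quality. The median share of mitochondrial UMIs in that class at E16.5 was 12.1%, and with only cells of at least 1000 genes, at most 10% mitochondrial and at most 5% haemoglobin UMIs, 683 cells were left with a ratio of 0.949, while at E14.5 and E18.5 it was 2.89 and 2.22.

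**Figure D3:**
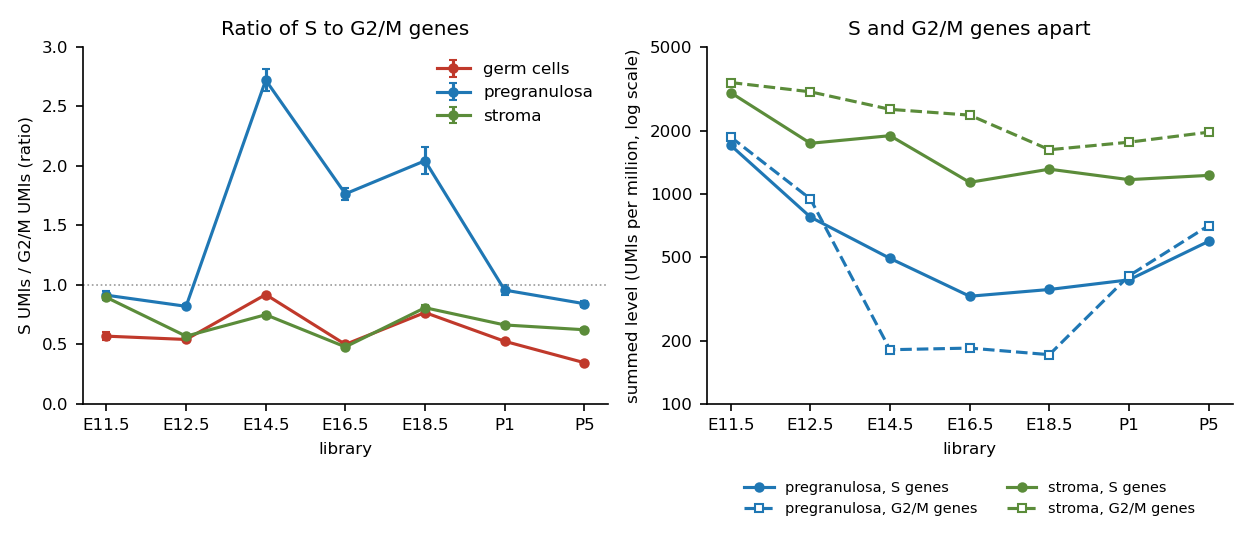
Left, ratio of S to G2/M UMIs by library in germ cells, pregranulosa and stroma, with bars for 95% intervals of the counts and a dotted line at 1; right, summed level of the S genes (filled circles) and of the G2/M genes (open squares) in CPM on a log axis. The pregranulosa ratio reaches 2.72 at E14.5, where its G2/M sum is 181 CPM.

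Within thinned cells, S and G2/M transcripts went together in stroma, with a Spearman rho of 0.36 to 0.449 over 875 to 2879 cells per library. In pregranulosa rho was 0.364 at E11.5, 0.00639 at E14.5 and 0.231 at P5, and in germ cells it ranged from -0.31 to 0.215. Cells of a library share its depth and free transcripts, and in counts this sparse a weak rho is no finding. At E14.5, 21.7% of stromal cells were over 1000 CPM for both lists and 18.7% for the S genes alone. Of pregranulosa cells, 0.442% were over it for both and 7.31% for the S genes alone. Germ cells were unlike either, since 72.7% were over it for both at E14.5 and 43.2% for the G2/M genes alone at P1.

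Pregranulosa and stroma were compared within the E12.5, E14.5 and P5 libraries. The pregranulosa sum was 0.358 (95% interval 0.353 to 0.363) of the stromal sum at E12.5, 0.153 (95% interval 0.15 to 0.155) at E14.5 and 0.408 (95% interval 0.401 to 0.415) at P5. At E12.5, 39 of 50 members were over 2-fold lower in pregranulosa, among 12.6% of all genes tested (those with at least 20 UMIs over both classes), and 0 were over 2-fold higher, against 17.7% of all genes. At E14.5, 47 were lower, against 11.7% of all genes, and 0 higher, against 20.3%. At P5, 32 were lower, against 14.6%, and 0 higher, against 16.6%. All 30 G2/M genes were over 2-fold lower at E12.5 and at E14.5, while the S genes past that mark numbered 9 of 20 at E12.5, 17 at E14.5 and 7 at P5. The median log2 difference of the members was -1.60, -3.57 and -1.36 in that order, and of all genes -0.00386, 0.17 and 0.09.

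At E14.5 the members nearest to the stromal level were S genes: Pcna, the sliding clamp of the polymerases, at 0.599 (0.552 to 0.651) of it, the helicase subunits Mcm6 at 0.527 (0.488 to 0.57) and Mcm2 at 0.52 (0.456 to 0.593). The members farthest below it were Pclaf, a partner of the clamp, at 0.0237 (0.0211 to 0.0265), the spindle protein Ckap2l at 0.0353 (0.0242 to 0.05) and the kinetochore subunit Nuf2 at 0.0398 (0.0268 to 0.0574). At E12.5 the extremes were Ckap2l (0.174), Cdc6 (0.196) and Pclaf (0.203) on the low side and Mcm2 (0.806), Mcm6 (0.765) and Gins2 (0.681) on the high side. At P5 they were Knl1 (0.19), Cenpe (0.218) and Nusap1 (0.221) against Chaf1b (0.878), Gmnn (0.841) and Fen1 (0.751). Helicase genes and the fork genes Pcna and Hells thus stood nearer to stroma than any kinetochore gene did at E14.5, where the kinetochore and checkpoint genes ranged from 0.0398 (Nuf2) to 0.0886 (Bub1b) and the helicase genes from 0.176 (Cdc45) to 0.527 (Mcm6).

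**Figure D4:**
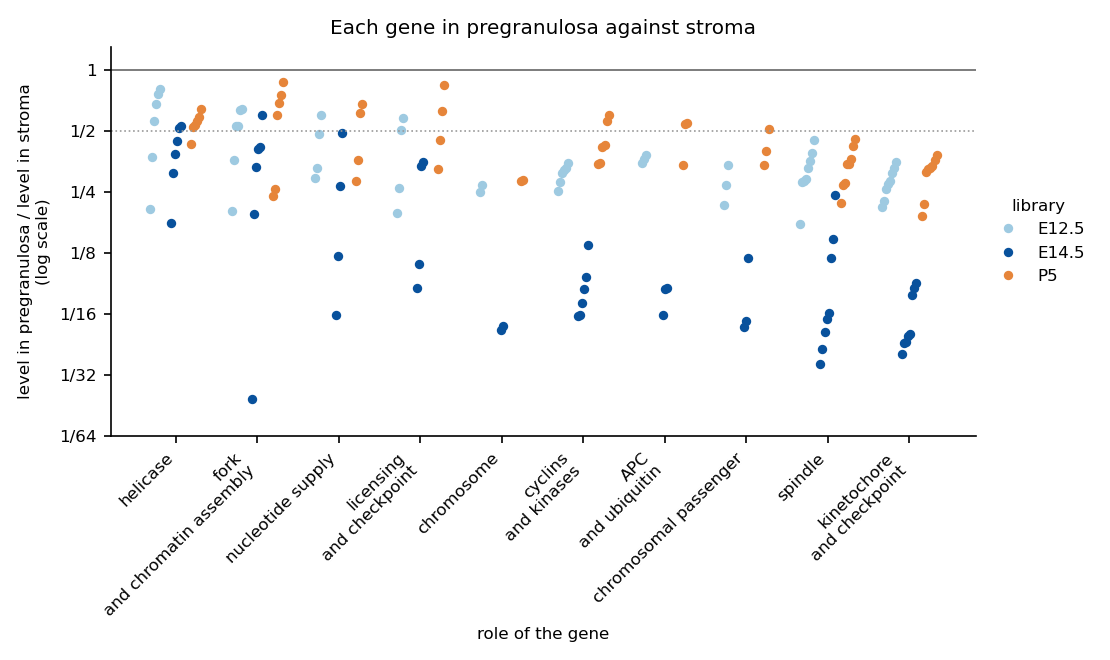
Level of each gene in pregranulosa divided by its level in stroma of the same library (vertical log axis), 1 point per gene, by role (horizontal axis), at E12.5, E14.5 and P5; the dotted line marks a 2-fold lower level. Points of the mitotic roles drop to between 0.0353 and 0.241 at E14.5, and the lowest point of all is Pclaf at 0.0237.

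Helicase genes are the members that open the DNA. Mcm6, a subunit of the ring that unwinds DNA, was at 213, 189, 169.7, 74.3, 80.7, 93.3 and 68.2 CPM in germ cells in the order of the ages. In pregranulosa it was at 147, 102, 71.4, 55.1, 42.4, 35.3 and 49.8, and in stroma at 151, 133, 135, 106, 116, 99.3 and 95.1. Stroma varied least. Pregranulosa lay near it at E11.5, at 0.765 of it at E12.5 and at 0.524 of it at P5. The other ring subunits Mcm2, Mcm4 and Mcm5 were in pregranulosa at 24.5, 29.7 and 25.6 CPM at E14.5. Cdc45, which joins the ring when it is switched on, was farther below stroma than any ring subunit, at 3.01 against 17.1. Gins2, another part of the active helicase, behaved otherwise in germ cells: it was at 12.99, 12.2, 18.04, 22.2, 29.6, 46.7 and 174 CPM, the highest at P5, when germ cells held 3.14 (2.79 to 3.53) times the stromal level, whereas at E12.5 they held 0.16 (0.127 to 0.198) of it.

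Among the fork and chromatin assembly genes, Pclaf and Hells were opposites. Pclaf was at 950.5, 415, 530.3, 208, 295, 212 and 242 CPM in stroma, the class where it was highest at every age. In germ cells it was at 100.1, 27.1, 39.4, 7.93, 7.59, 9.56 and 2.07, and in pregranulosa at 350.3, 84.1, 12.54, 7.62, 9.72, 23.5 and 62.5. Germ cells at P5 held 5 UMIs of it, 0.00853 (0.00277 to 0.0199) of the stromal level, and the pregranulosa level at E16.5 was 7.62. Hells, a remodelling ATPase needed for DNA methylation and for meiosis, was instead a germ cell transcript, at 329, 938, 1029, 939, 692, 488 and 311 CPM. Stroma held 124, 106, 109, 86.9, 93.1, 85.1 and 94.5 and pregranulosa 102, 67.6, 45.2, 33.3, 32.5, 29.98 and 57.0. At E12.5 the germ cell level was 8.88 (8.35 to 9.45) times that of stroma and at E16.5 10.8 (10.3 to 11.3) times, and it made up 12.6 to 19.9% of all member UMIs of germ cells from E12.5 to E18.5, against 2.20 to 3.18% in stroma. Without it the germ cell S to G2/M ratio at E14.5 was 0.574 in place of 0.919. The primase subunit Prim1 and the flap nuclease Fen1 were also higher in germ cells at E14.5 (120.5 and 78.3 CPM) than in stroma (55.4 and 37.0), while levels of the clamp Pcna (139 and 113) were nearer to each other, and the histone chaperone subunit Chaf1b was higher in stroma (18.8 and 28.2).

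Nucleotide supply genes were lower in germ cells at E16.5 and E18.5 than at E12.5, and Rrm1 and Rrm2 were still lower at P5 than at E12.5. Rrm2, the regulated subunit of ribonucleotide reductase, was at 151, 74.2, 88.9, 15.96, 27.6, 33.5 and 20.7 CPM in germ cells. In pregranulosa it was at 148, 25.8, 14.9, 4.44, 12.4, 21.0 and 17.4, and in stroma at 314, 78.2, 122, 39.6, 76.0, 63.2 and 61.1. Its partner Rrm1, which is kept through the cycle, changed less in pregranulosa, from 50.1 at E12.5 to 44.9 at P5 with a lowest value of 34.4 at E18.5. In germ cells Rrm1 stood at 0.414, 0.35, 0.327 and 0.29 of its E12.5 level at E16.5, E18.5, P1 and P5. Tyms, the thymidylate synthase, was at 99.9 in germ cells at E12.5, 11.55 at E16.5 and 107 at P5. The thymidine kinase Tk1 went the same way, at 27.1, 4.01 and 26.9. At E18.5, whose barcodes overlap those of the other libraries, germ cells held 20.2 of Tyms and 4.60 of Tk1, also below the E12.5 values.

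Of the licensing and checkpoint genes, Gmnn (geminin, which blocks renewed loading of the helicase) was higher in germ cells than in stroma at every age. Germ cells held 243, 321, 282, 96.8, 165, 232 and 216 CPM, stroma 114, 90.2, 87.7, 48.8, 49.6, 60.7 and 50.2 and pregranulosa 67.0, 52.1, 29.4, 17.0, 18.4, 27.1 and 42.3. The difference was 3.56 (3.31 to 3.83) times at E12.5 and 4.29 (3.84 to 4.80) times at P5. Cdc6, the loader of the helicase, was low in all classes, at most 27.3 CPM in germ cells, 24.8 in stroma and 11.4 in pregranulosa, each at E11.5. The checkpoint adaptor Clspn was at 143 in germ cells at E12.5 and 37.4 at E18.5, and Dtl, the adaptor that sends the licensing factor to destruction, at 69.9 and 36.8.

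Among the cyclins and kinases of mitotic entry, Cdk1 was highest in germ cells after birth and Ccnb1 before E14.5. Cdk1, the kinase that drives entry, was at 75.4, 93.5, 75.9, 47.5, 106, 192 and 284 CPM in germ cells. In pregranulosa it was at 75.8, 49.5, 13.5, 10.3, 11.1, 31.3 and 54.3, and in stroma at 157, 160.1, 142, 78.3, 96.1, 136 and 131. Its germ cell level was highest at P5, where stroma lay at 131. Ccnb1, the main mitotic cyclin, followed another course in germ cells, at 294, 179.7, 123, 12.8, 38.8, 57.4 and 84.3, with its lowest value at E16.5, and stroma and pregranulosa also had their lowest Ccnb1 level there. Ccnb2, the other B cyclin, was at 208, 218, 251, 93.7, 207, 139 and 116 in germ cells, also lowest at E16.5. Ccna2, Aurka and Plk1 (cyclin A2 and the Aurora A and Polo-like kinases) were at 28.4, 21.2 and 13.4 in germ cells at E18.5, and at 62.4, 66.9 and 31.4 at P5.

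Of the ubiquitin and chromosomal passenger genes, Ube2c and Birc5 were higher in germ cells at P1 and P5 than at any earlier age. Ube2c, the conjugating enzyme of the anaphase-promoting complex, was at 269, 338, 233, 30.4, 89.9, 494 and 881 CPM in germ cells. In stroma it was at 293, 215, 205, 101, 113, 90.3 and 104, and in pregranulosa at 158, 81.9, 17.1, 10.6, 12.8, 45.6 and 57.1. At P5 the germ cell level was 8.46 (7.93 to 9.03) times that of stroma, whereas at E16.5 it was 0.302 (0.276 to 0.33) of it. Birc5 (survivin), the passenger that brings the Aurora B kinase to centromeres, was at 214, 152, 143, 174, 273, 450.2 and 712 in germ cells, at 274, 213, 233, 112, 117, 130.2 and 118 in stroma and at 141, 57.5, 13.5, 7.24, 16.02, 40.3 and 47.0 in pregranulosa. Its kinase Aurkb was not high with it: germ cells held 0.799 CPM at E18.5 and 28.9 at P5, against 37.3 in stroma at P5. Cdca8 (borealin), a further passenger, was at 67.7 at E18.5 and 226 at P5 in germ cells. Cdc20 and Cdca3, an activator and a trigger of ubiquitin ligases, were at 37.6 and 46.7 CPM in germ cells at P5, both below stroma (63.97 and 62.8).

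Several kinetochore and checkpoint genes were high in germ cells at E16.5, and the centromere histone was low. Cenpf, a large protein of the outer kinetochore, was at 382, 909, 283, 780.1, 286, 291 and 359 CPM in germ cells. In pregranulosa it was at 98.9, 84.7, 7.56, 13.9, 8.70, 19.8 and 53.1, and in stroma at 158, 256, 156, 196, 89.1, 104 and 164. Germ cells held 3.55 (3.39 to 3.704) times the stromal level at E12.5, 3.99 (3.86 to 4.12) times at E16.5 and 2.19 (2.03 to 2.37) times at P5. The checkpoint kinase Bub1 was at 84.5, 97.4, 99.0, 301, 99.1, 69.1 and 53.3 in germ cells and at 43.8, 37.2, 23.4, 28.5, 14.6, 10.8 and 13.8 in stroma, so that within the E16.5 library the germ cell level was 10.6 (9.77 to 11.45) times the stromal level. Its relative Bub1b was at 0.803 of stroma. The centromere histone Cenpa had the opposite course, at 396, 337, 231, 13.98, 13.2, 44.4 and 39.2 in germ cells, with 0.159 (0.14 to 0.18) of the stromal level at E16.5. The motor Cenpe and the Ndc80 complex subunits Ndc80 and Nuf2 were 1.93, 2.23 and 2.52 times the stromal level in that library.

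Spindle genes followed no common course in germ cells. Nusap1, a microtubule stabiliser, was at 91.0, 114, 64.03, 34.4, 32.2, 45.3 and 183 CPM in germ cells. In stroma it was at 127, 87.0, 83.2, 90.5, 72.3, 77.9 and 85.0, and in pregranulosa at 62.5, 24.4, 3.47, 5.23, 5.09, 15.95 and 18.8. Prc1, which bundles the central spindle, likewise was low in germ cells at E16.5 and E18.5 (47.8 and 41.8) and high at P1 and P5 (198 and 209.9). Hmmr and Ckap2l, both bound to spindle microtubules, were at 146 and 56.2 at E16.5 and at 50.6 and 32.6 at E18.5. The kinesin Kif23 was at 90.1 at E14.5 and 35.1 at P5, the kinesin Kif11 at 32.1 and 12.8, the depolymerase Kif2c at 53.1 and 47.9, and the assembly factor Tpx2 at 83.6 and 98.3.

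The chromosome genes Top2a and Mki67 are the usual marks of dividing cells. Top2a, the topoisomerase that untangles sister chromatids, was at 531, 517, 342, 622, 116, 40.6 and 24.0 CPM in germ cells. In stroma it was at 355, 313, 236, 349, 168, 183 and 228, and in pregranulosa at 153, 84.4, 12.3, 21.2, 8.33, 31.2 and 65.3. It was higher in germ cells than in stroma up to E16.5 and lower from E18.5 on, at 0.105 (0.0795 to 0.136) of stroma at P5. Mki67 was at 75.4, 166, 30.2, 309, 28.6, 37.3 and 37.2 in germ cells, at 54.0, 122, 62.7, 285, 62.1, 96.5 and 102 in stroma and at 28.0, 30.3, 3.43, 21.5, 4.54, 27.8 and 28.9 in pregranulosa. Germ cells and stroma had their highest Mki67 level at E16.5, and within that library germ cells and stroma differed by a factor of 1.09 (1.05 to 1.12).

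Across ages, germ cells at E16.5 against E12.5 had a summed level ratio of 0.731 (95% interval 0.724 to 0.738). 24 of 50 members were over 2-fold lower, against 16.8% of all genes, and 5 over 2-fold higher, against 45% of all genes, with a median log2 difference of -0.97 for the members and 0.77 for all genes. The lowest were Cenpa (0.0415), Aurkb (0.0498) and Ccnb1 (0.0711). The 5 higher members were all G2/M genes: Bub1 (3.096), Knl1 (3.08), Ckap2l (2.46), Nuf2 (2.33) and Hmmr (2.05). With E18.5 in place of E16.5 the ratio was 0.468, 30 members were lower, 21 of them the same genes, and 1 was higher, Gins2, which is not among those 5. Of all genes, 15.7% were over 2-fold lower and 35.4% higher at E18.5 against E12.5. The overlap was not counted over all genes, and both comparisons share the E12.5 germ cells. Cenpa, Aurkb, Ccnb1, Tyms and Tk1 were therefore over 2-fold below E12.5 in both libraries, whereas Bub1, Knl1, Ckap2l, Nuf2 and Hmmr passed 2-fold above it at E16.5 and not at E18.5.

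Germ cells of the E14.5 library were also compared with each other, which leaves out differences between libraries. They were divided by Stra8, the switch for meiotic entry, at 2 per 10000 UMIs, and by Sycp3, a protein of the chromosome axis, at 5 per 10000. The 304 Stra8-low cells had a summed level of 6361 CPM, the 1328 cells high in Stra8 and low in Sycp3 5749, and the 879 cells high in both 5369. The S sum was 2524, 2739 and 2867 and the G2/M sum 3837, 3010.4 and 2502, which gives S to G2/M ratios of 0.658, 0.91 and 1.15. Median UMIs per cell were 15635, 13746 and 10634. Ccnb1 stood at 269, 134 and 27.2 CPM in the 3 subsets in that order, Aurkb at 21.9, 14.9 and 3.42 and Ube2c at 383, 255 and 111. Going the other way were Kif23 at 55.9, 74.7 and 139, Gins2 at 12.3, 13.9 and 29.3 and Bub1 at 68.6, 81.7 and 149.5, the 3 members over 2-fold higher in the last subset than in the first, against 20.2% of all genes, while 13 were over 2-fold lower, against 11.8%. Hells was at 798, 994.8 and 1218, a larger rise than that of the S sum. The S genes without Hells therefore had no higher sum in the last subset than in the first. Their sum was also below the G2/M sum in each of the 3 subsets. Of the 20 S genes, 11 were higher in the last subset than in the first, and the rest were lower. Ccnb1, Aurkb and Ube2c, low at E16.5, were lower in the cells high in both genes already at E14.5, and Bub1 was higher there. Other members did not go the way of their E16.5 values. Tk1, low at E16.5, was at 28.2, 40.1 and 56.2 CPM in the 3 subsets. Rrm1 and Cdc6, also low at E16.5, were in the last subset at 1.06 and 1.02 times the first. Nuf2, high at E16.5, was at 1.01 times. Whether the E16.5 values follow the stage of the cells was not tested.

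**Figure D5:**
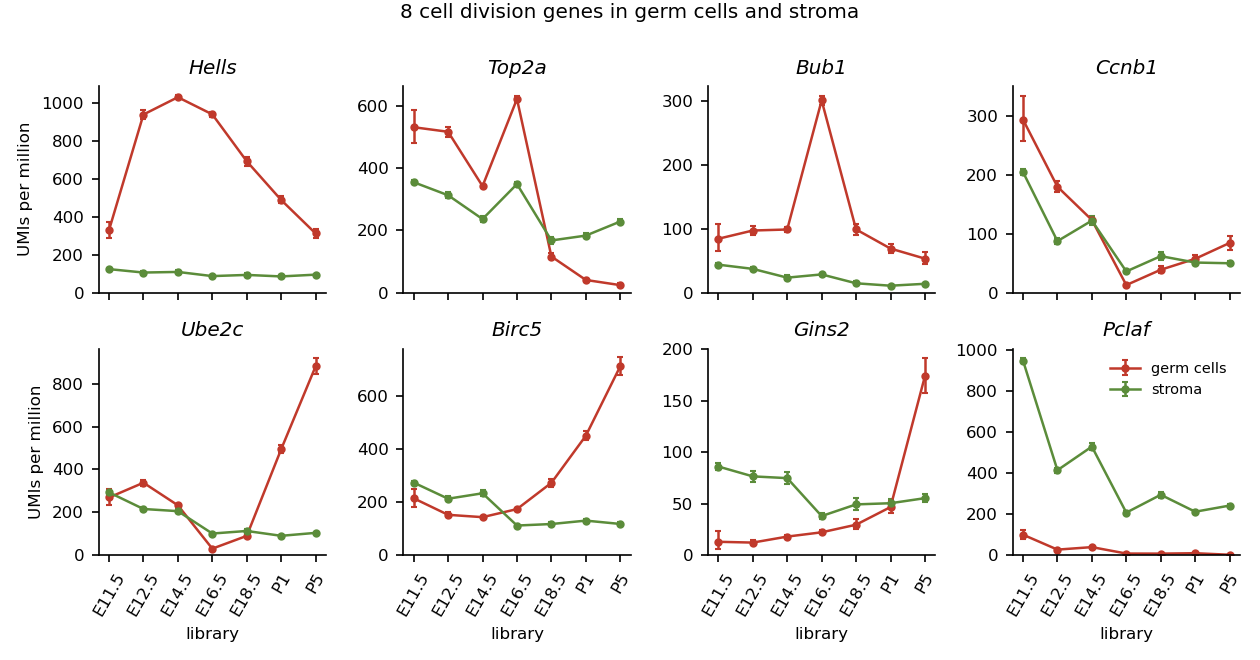
Level in CPM (vertical axes, each from 0) of 8 genes in germ cells and stroma by library (horizontal axes), with bars for 95% Poisson intervals. Hells is at 1029 in germ cells at E14.5, Bub1 and Top2a peak at E16.5 in germ cells, Ube2c, Birc5 and Gins2 are highest at P5 in germ cells, and Pclaf is higher in stroma than in germ cells throughout.

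Germ cells at P5, 47 cells with a median of 58051 UMIs, had a sum 1.003 (95% interval 0.985 to 1.02) times that of E16.5. 19 of 50 members were over 2-fold higher, against 22.8% of all genes, and 13 over 2-fold lower, against 32.6%. The share of lower members was thus below that of all genes, and 18 members lay within 2-fold. Hells and Cenpf were among the 5 members with most UMIs at both ages. The largest ratios were those of Ube2c (28.9), Aurkb (21.6) and Tyms (9.26), and the smallest those of Top2a (0.0385), Mki67 (0.12) and Kif11 (0.15). With E18.5 in place of E16.5 the ratio of the sums was 1.57. Then 20 members were higher at P5, against 19.1% of all genes, 17 of them the same genes, and 3 lower (Top2a, Hells and Pclaf), against 22.3%, all of them lower against E16.5 too. The overlap was not counted over all genes, and both comparisons share the P5 germ cells. Mki67, Cenpf, Kif23, Hmmr and Knl1, lower against E16.5, had ratios above 1 against E18.5. The 5 members with most UMIs were Hells, Cenpf, Birc5, Ccnb2 and Gmnn at E18.5, with 692, 286, 273, 207 and 165 CPM. At P1 they were Ube2c, Hells, Birc5, Cenpf and Gmnn, with 494, 488, 450.2, 291 and 232, and at P5 Ube2c, Birc5, Cenpf, Hells and Cdk1.

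Germ cells were also set against stroma of the same library, a comparison chosen after the values were seen. Germ cell sums were 1.55 (95% interval 1.53 to 1.57) times the stromal sum at E12.5, 1.55 (95% interval 1.54 to 1.57) times at E16.5 and 1.71 (95% interval 1.68 to 1.74) times at P5. At E12.5, 7 members were over 2-fold higher, against 16.1% of all genes, and 4 lower, against 36.9%. At E16.5, 10 were higher, against 30.8%, and 13 lower, against 31.6%. At P5, 16 were higher, against 27.8%, and 6 lower, against 30.1%. Most members therefore lay within 2-fold of stroma at E12.5 (39 of 50), fewer at E16.5 (27) and P5 (28). By the shares just given, fewer of all genes also lay within 2-fold at E16.5 and P5 than at E12.5. Pclaf and Tk1 were over 2-fold lower and Hells, Bub1 and Cenpf over 2-fold higher in all 3 libraries. At E12.5 the extremes were Hells (8.88), Gmnn (3.56) and Cenpf (3.55) above and Pclaf (0.0654), Gins2 (0.16) and Ckap2l (0.459) below. At E16.5 they were Hells (10.8), Bub1 (10.6) and Cenpf (3.99) above and Pclaf (0.0382), Aurkb (0.0435) and Tk1 (0.12) below, and at P5 Ube2c (8.46), Birc5 (6.05) and Gmnn (4.29) above and Pclaf (0.00853), Top2a (0.105) and Rrm2 (0.338) below.

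The pregranulosa class was not uniform. At E12.5 the 503 cells with a UMI of Foxl2, the transcription factor of granulosa identity, had a summed level of 737 CPM (716 to 758) and the 927 cells without one 2232 (2205 to 2259), at median depths of 12210 and 12761 UMIs. Their S to G2/M ratios were 1.94 and 0.708, and the whole class at E14.5 had 674 CPM and a ratio of 2.72. With and without Foxl2 the sums were 576 and 714 at E14.5, 456 and 703 at E16.5, and 488 and 560.5 at E18.5. At P1 and P5 Foxl2-positive cells had the higher sum, 840.0 against 629 and 1329 against 1009. Foxl2-positive cells thus had the lower sum in the fetal libraries and the higher sum after birth. Of thinned cells with and without Foxl2, 12.7% and 29.96% were over 1000 CPM at E12.5 and 5.62% and 10.08% at E16.5, with intervals apart. At E14.5, E18.5, P1 and P5 the intervals overlapped, with 11.03% and 9.26% at P1 and 12.58% and 9.03% at P5. The shares of cells thus did not show the switch after birth beyond counting error. The split was not recomputed without the cells of highest Scrublet scores.

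Pregranulosa-gate cells at P5 were also divided by Amh, the anti-Müllerian hormone made by granulosa cells of growing follicles. At P5, 438 pregranulosa-gate cells had an Amh UMI and a summed level of 2600.0 CPM (2555 to 2646), and the 1095 without one 619 (604 to 636), beside 522 (508 to 535) in the whole class at E18.5. The P1 library was not divided by Amh. Of these cells thinned to 2000 UMIs, 27.2% (23.1 to 31.6) and 6.18% (4.82 to 7.78) were over 1000 CPM. The median depths were 10034 and 7852 UMIs, and a deeper cell is more likely to show an Amh UMI. All 30 G2/M genes and 18 of 20 S genes were over 2-fold higher with Amh, against 3.93% of all genes, and 0 over 2-fold lower, against 7.59%. Cenpf was at 132 against 12.0 CPM, Plk1 at 28.9 against 2.92 and Hmmr at 28.5 against 2.92, the largest ratios. Rrm1 at 57.4 against 38.3, Mcm2 at 33.9 against 17.8 and Pcna at 76.0 against 37.8 had the smallest. The S to G2/M ratio was 0.657 with Amh, close to the stromal 0.623, and 1.44 without. A split by Lgr5, a receptor found on a part of the pregranulosa, gave 959 with (131 cells) and 1333 without it. Without the 5% of cells with the highest Scrublet doublet scores the pregranulosa sum was 505 at P1, in place of 797, and 1212 at P5.

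Further genes of the cycle outside the 50 were counted in lists by function. Of 32 further mitotic genes, 29 were over 2-fold lower in pregranulosa than in stroma at E12.5, 31 at E14.5 and 24 at P5, and 0 higher. Of 22 further replication genes, 8, 13 and 4 were lower and 1, 0 and 0 higher. The shares of all genes for these comparisons are those given above. A further list held inhibitors of cyclin-dependent kinases and pocket proteins, together with Btg1 and Btg2. Of its 11 tested genes, 4, 4 and 5 were over 2-fold higher in pregranulosa and 1, 1 and 3 over 2-fold lower. Cdkn1b (p27) was at 51.9, 179.7, 175, 848, 207, 212 and 193 CPM in pregranulosa and at 14.95, 14.7, 22.4, 51.7, 29.5, 27.9 and 23.2 in stroma in the order of the ages. Cdkn1c (p57) was at 1665, 2593, 2417, 1508, 954, 388 and 50.1 and at 1728, 758, 384, 428, 421, 433 and 319. Thus Cdkn1b stayed above stroma in every library, while Cdkn1c was above it from E12.5 to E18.5 and below it at P1 and P5. The G1 cyclin Ccnd2 was at 303 in pregranulosa at E12.5 and 1731 at P5, with 653 and 518 in stroma. In germ cells Ccnd2 was at most 33.8, and Cdk4, its kinase, was at 524, 260.4, 107, 33.9, 79.5, 33.0 and 24.8. Of 7 G1 cyclins and kinases, 5, 4 and 5 were over 2-fold lower in germ cells than in stroma at E12.5, E16.5 and P5, and 0 higher. Of all genes, 36.9, 31.6 and 30.1% were lower in those comparisons and 16.1, 30.8 and 27.8% higher. Of 14 meiotic and oocyte relatives of cycle genes, 6 of 11 tested were over 2-fold higher in germ cells than in stroma at P5, against 27.8% of all genes.

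The remaining classes were compared across ages. Stroma at P5 against E12.5 had a summed level ratio of 0.665 (95% interval 0.657 to 0.673), with 10 of 50 members over 2-fold lower, against 10.1% of all genes. Of all genes 22.6% were past 2-fold in either direction, and of the members those 10 alone. The lowest ratios were those of Bub1 (0.371), Plk1 (0.421) and Kif2c (0.424), and the highest those of Pcna (1.304), Knl1 (1.201) and Tk1 (1.03), so 40 members stayed within 2-fold. In endothelium, 14 cells at E12.5 and 28 at P5, the ratio was 0.361 (95% interval 0.328 to 0.397), and 25 of 34 members tested were over 2-fold lower, against 14.6% of all genes, and 0 higher, against 10.2%. Pclaf (0.153), Bub1b (0.181) and Birc5 (0.187) were lowest, and Tyms (1.18), Pcna (1.03) and Tk1 (0.935) highest. In epithelium, 10 cells at E16.5 and 185 at E12.5, it was 0.305 (95% interval 0.231 to 0.395), with 14 members over 2-fold lower, against 7.05% of all genes, and 2 higher, against 20.8%. 23 members had no UMI in those 10 cells, which allows a level of up to 82.5 CPM each. Where that was above the E12.5 level the ratio was set to 1, as for Cdc6, Aurkb and Nusap1. This limited the calls of lower genes among the members and among all genes. Pclaf (0.0748), Ube2c (0.115) and Birc5 (0.116) were lowest, and the 2 higher members, Chaf1b at 2.35 (0.475 to 7.14) and Mki67 at 2.04 (0.87 to 4.08), and the next, Ccnb2 at 1.44, had few UMIs. With E18.5 in place of E16.5 the ratio was 0.413 from 15 cells, and 30 members were lower, against 16.7% of all genes, and with looser gates the ratio at E16.5 turned to a value above 1.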

How the data were processed

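Single-cell RNA-seq counts of 7 libraries were used. Per the labels, cells were loaded on a 10x Chromium system with v2 chemistry, sequenced on a NextSeq instrument, and the authors made the UMI counts per gene and cell with Cell Ranger 3.1.0 and the mm10 reference before they were deposited; the processing notes also name Seurat. The deposited counts are raw, and no authors' cell annotation was used.

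Cells with at least 200 genes were assigned to classes by gates of UMIs, and counts were summed over the cells of a class and divided by all their UMIs. Levels carry exact Poisson intervals, ratios exact conditional intervals and shares exact binomial (Clopper-Pearson) intervals, at 95%, which cover counting error only. Genes with at least 20 UMIs over both sides entered the counts past 2-fold, and a side without UMIs was set to 3 UMIs. Where that put the empty side above the other, the ratio was set to 1, so the gene was not called. Shares of cells used cells thinned to 2000 UMIs (seed 7). Doublets were kept, and an alternative left out the 5% of cells with the highest Scrublet scores (scanpy 1.11.5). Cells of the 5 classes had a median depth of 2133 to 58051 UMIs by class and library, and the cells without a gate at E16.5 one of 1456.5. Python 3.11.15, numpy 2.4.6, scipy 1.17.1 and pandas 2.3.3 were used. The script was tested on simulated counts.

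Members, gates and lists were chosen with earlier results of these data known. For every member role the member with most UMIs is given in every library, with Mki67, and for every comparison the 3 highest and 3 lowest members. Other members were named after their values were seen, to describe their role.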

Additional observations from a re-analysis of the deposited data

Results flagged for a closer look

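Cells that passed no gate, which enter no comparison above, had a higher summed level of the 50 genes than any of the 5 classes in 3 libraries. The sum at P1 was 8328 CPM, that at E16.5 6132 and that at E18.5 4284. At P1, the 880 of these cells with over 5% haemoglobin UMIs had 11918 and the other 1373 5404 CPM. At E16.5 the same split gave 6512 and 5745, and at E18.5 4089 and 4306. Red cell transcripts were at 174218 CPM in the cells without a gate at P1, 315328 at E16.5 and 63854 at E18.5, and immune markers (Cx3cr1, Csf1r, C1qa, Fcer1g and Tyrobp) at 471, 544 and 178, against at most 34369 and 64.7 in any gated class. No class was assigned to these cells, and the part of red or immune cells in their sum was not tested.

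Ube2c moved in opposite directions in germ cells and stroma. Its level at P5 was 2.61 times that at E12.5 in germ cells, from 338 to 881 CPM, whereas stroma went from 215 to 104. With 1 library per age the difference between the classes was not tested.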

How the results depend on the processing

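No paired analysis was possible because each age is 1 library, and no library could be left out within an age. The class sums, S to G2/M ratios, shares of cells over 1000 CPM and the values of the comparisons between ages and classes were recomputed with looser gates (1 UMI less), stricter gates (2 times the UMIs), gates scaled to depth, cells of several gates given to the largest, a quality filter (at least 1000 genes, at most 10% mitochondrial and 5% haemoglobin UMIs), the top 5% of Scrublet doublet scores left out, a denominator without ribosomal, mitochondrial and haemoglobin genes, and the mean over cells. Some alternatives were added after the data were seen, namely E18.5 in place of E16.5, Hells left out and Upk3b cells that passed any other gate. The subsets by Foxl2, Amh, Lgr5, Stra8 and Sycp3, the E16.5 values against the neighbouring ages and the lists of further cycle genes were not recomputed. Of 5488 member ratios, 5065 stayed on their side of the 2-fold mark, 395 crossed it and 28 changed direction. Changes of direction were counted only for members past 2-fold in the main setting. Of 103 ratios of sums, 31 stayed within their counting interval, 71 moved and 1, that of epithelium with looser gates, changed direction. With these depths the intervals are narrow, so most moves of these ratios are small. Of 280 class sums, 95 stayed within their interval and 185 moved. Of 350 shares of cells, 259 stayed and 91 moved. Of 245 S to G2/M ratios, 137 stayed, 92 moved and 16 changed their side of 1. The sum of pregranulosa at P1 with the doublet filter is given above. Pregranulosa stayed below stroma, and the E14.5 S to G2/M ratio of pregranulosa above 1, under every alternative. The cause of each move listed below was not tested.

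For germ cells at E16.5 against E12.5, the ratio of sums (0.731) was 0.741 with looser gates, 0.74 with the quality filter, 0.717 with the mean over cells, 0.643 with the reduced denominator, 0.468 with E18.5 in place of E16.5 and 0.692 with Hells left out. For germ cells at P5 against E16.5, the ratio of sums (1.003) was 0.936 with looser gates, 0.908 with the mean over cells, 0.94 with the reduced denominator, 1.57 with E18.5 in place of E16.5 and 1.14 with Hells left out. For epithelium at E16.5 against E12.5, the ratio of sums (0.305) was 1.36 with looser gates, 0.601 with stricter gates, 0.879 with gates scaled to depth, 0.633 with cells of several gates added, 0.544 with the mean over cells, 0.591 with Upk3b cells of any other gate added and 0.413 with E18.5 in place of E16.5. For endothelium at P5 against E12.5, the ratio of sums (0.361) was 0.284 with looser gates, 0.459 with stricter gates, 0.517 with gates scaled to depth, 0.505 with cells of several gates added, 0.412 with the quality filter, 0.408 with the doublet filter and 0.506 with the mean over cells. For pregranulosa against stroma at E12.5, the ratio of sums (0.358) was 0.347 with looser gates, 0.317 with stricter gates, 0.396 with cells of several gates added, 0.34 with the doublet filter, 0.37 with the mean over cells, 0.365 with the reduced denominator and 0.352 with Hells left out. For pregranulosa against stroma at P5, the ratio of sums (0.408) was 0.374 with looser gates, 0.491 with stricter gates, 0.379 with gates scaled to depth, 0.42 with cells of several gates added, 0.422 with the quality filter, 0.383 with the doublet filter, 0.376 with the mean over cells and 0.396 with the reduced denominator. For germ cells against stroma at E12.5, the ratio of sums (1.55) was 1.60 with looser gates, 1.46 with stricter gates, 1.61 with gates scaled to depth, 1.53 with the doublet filter, 1.98 with the mean over cells, 1.72 with the reduced denominator and 1.38 with Hells left out. For germ cells against stroma at E16.5, the ratio of sums (1.55) was 1.64 with looser gates, 1.43 with stricter gates, 1.37 with gates scaled to depth, 1.39 with cells of several gates added, 1.59 with the quality filter, 1.57 with the doublet filter, 1.91 with the mean over cells, 1.57 with the reduced denominator and 1.32 with Hells left out. For stroma at P5 against E12.5, the ratio of sums (0.665) was 0.644 with stricter gates, 0.694 with gates scaled to depth, 0.675 with cells of several gates added, 0.651 with the doublet filter and 0.639 with the mean over cells. For pregranulosa against stroma at E14.5, the ratio of sums (0.153) was 0.169 with stricter gates, 0.158 with gates scaled to depth, 0.179 with cells of several gates added, 0.148 with the doublet filter, 0.169 with the mean over cells and 0.146 with Hells left out. For germ cells against stroma at P5, the ratio of sums (1.71) was 1.65 with stricter gates, 1.67 with cells of several gates added, 2.01 with the mean over cells, 1.59 with the reduced denominator and 1.66 with Hells left out.

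The 14 members lower for epithelium at E16.5 against E12.5 became 2 with looser gates, 26 with stricter gates, 24 with a 1.5-fold mark, 8 with a 3-fold mark, 25 with Upk3b cells of any other gate added and 30 with E18.5 in place of E16.5. The 25 members lower for endothelium at P5 against E12.5 became 15 with the doublet filter, 6 with at least 100 UMIs and 13 with a 3-fold mark. The 7 members higher for germ cells against stroma at E12.5 became 19 with the mean over cells, 11 with the reduced denominator, 22 with a 1.5-fold mark and 3 with a 3-fold mark. The 10 members lower for stroma at P5 against E12.5 became 28 with a 1.5-fold mark and 0 with a 3-fold mark. The 19 members higher for germ cells at P5 against E16.5 became 12 with a 3-fold mark. The 32 members lower for pregranulosa against stroma at P5 became 14 with a 3-fold mark. The 13 members lower for germ cells against stroma at E16.5 became 7 with a 3-fold mark. The 16 members higher for germ cells against stroma at P5 became 9 with a 3-fold mark.

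In epithelium at E18.5 the S to G2/M ratio (1.83) crossed 1, at 0.909 with looser gates and 0.92 with cells of several gates added. In epithelium at P1 the S to G2/M ratio (1.28) crossed 1, at 0.602 with looser gates, 0.781 with gates scaled to depth and 0.856 with cells of several gates added. In epithelium at P5 the S to G2/M ratio (1.51) crossed 1, at 0.381 with looser gates, 0.812 with stricter gates, 0.53 with gates scaled to depth and 0.505 with cells of several gates added. In pregranulosa at E11.5 the S to G2/M ratio (0.913) crossed 1, at 1.01 with gates scaled to depth and 1.06 with the mean over cells. In pregranulosa at E16.5 the S to G2/M ratio (1.77) crossed 1, at 0.949 with the quality filter. In pregranulosa at P1 the S to G2/M ratio (0.956) crossed 1, at 1.03 with the quality filter, 1.49 with the doublet filter and 1.13 with the mean over cells. In pregranulosa at P5 the S to G2/M ratio (0.842) crossed 1, at 1.03 with the mean over cells. Looser gates reversed the direction of Mcm2 at 1.93, Mcm6 at 1.49, Rrm1 at 3.30, Rrm2 at 1.14, Dtl at 1.57, Top2a at 1.71, Ube2c at 1.18 and Cdca8 at 1.09 for epithelium at E16.5 against E12.5. Stricter gates reversed the direction of Chaf1b at 0.395 for epithelium at E16.5 against E12.5. Gates scaled to depth reversed the direction of Chaf1b at 0.55, Top2a at 1.31 and Cenpe at 1.06 for epithelium at E16.5 against E12.5. Cells of several gates added reversed the direction of Chaf1b at 0.569 for epithelium at E16.5 against E12.5. The quality filter reversed the direction of Mki67 at 0.335 for epithelium at E16.5 against E12.5. Upk3b cells of any other gate added reversed the direction of Chaf1b at 0.399 for epithelium at E16.5 against E12.5. E18.5 in place of E16.5 reversed the direction of Mcm2 at 1.61, Rrm1 at 1.33, Chaf1b at 0.202 and Mki67 at 0.394 for epithelium at E16.5 against E12.5. Stricter gates reversed the direction of Mcm2 at 1.08 for endothelium at P5 against E12.5. Gates scaled to depth reversed the direction of Mcm2 at 1.04 for endothelium at P5 against E12.5. E18.5 in place of E16.5 reversed the direction of Hmmr at 0.713 and Knl1 at 0.514 for germ cells at E16.5 against E12.5. E18.5 in place of E16.5 reversed the direction of Mki67 at 1.301, Cenpf at 1.25, Kif23 at 1.15, Hmmr at 1.13 and Knl1 at 1.57 for germ cells at P5 against E16.5.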

Other observations

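The member with most UMIs differed between classes. In stroma Pclaf was the leading member in every library but E16.5, where Top2a led, with 14.8% of member UMIs at E11.5 and 7.60% at P5. In pregranulosa Pclaf led at E11.5, Mcm6 from E12.5 to E16.5, Pcna at E18.5, Ube2c at P1 and Top2a at P5, and at E14.5 the leading 5 members, all S genes (Mcm6, Pcna, Hells, Rrm1 and Gins2), made up 38.3% of member UMIs.

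The S to G2/M ratio of epithelium was 0.796, 0.539, 1.09, 0.781, 1.83, 1.28 and 1.51 in the order of the ages, from 10 to 300 cells, and the values at E14.5 and after E16.5 crossed 1 with other gates. The E14.5 value, 1.09 (0.9999 to 1.19), was 0.908 with cells of several gates added. In endothelium the ratio was 0.737, 0.287, 0.821, 0.578, 0.526, 0.269 and 0.484, with no value above 1. Mcm6 was the leading member of epithelium at P1 and P5, at 71.2 and 106 CPM.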
